A study of Mus musculus with 17 samples.

Results

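The genes described here encode the enzymes that cut RNA held in an RNA:DNA hybrid and the nucleases that degrade RNA in the nucleus: Rnaseh1, Rnaseh2a, Rnaseh2b, Rnaseh2c, Xrn2, Exosc10 and Dis3. They were chosen by name and matched by symbol, and all 7 were found among the 26131 genes of the deposited count table. The rule that names them uses no measured value.

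A gapmer antisense oligonucleotide (ASO) pairs with its target RNA through a stretch of DNA, and RNase H cuts the RNA strand of that hybrid. RNase H1 is a single-chain enzyme, whereas RNase H2 joins a catalytic A subunit to the B and C subunits and also removes ribonucleotides built into DNA. The cut fragments are degraded from the 5′ fragment's new 3′ end by the nuclear exosome, whose nucleases include Exosc10 and Dis3, and from the 3′ fragment's new 5′ end by the exonuclease Xrn2. The chemistry of the oligonucleotide is not given in the sources used here.

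RNA was counted as unique molecular identifiers (UMIs) in single nuclei of the posterior brain of 17 female mice, aged 2.3 months, all homozygous for a knocked-in human transferrin receptor (TfR). By intravenous injection 4 mice received saline, 4 a free oligonucleotide against the nuclear long noncoding RNA Malat1 (Malat1 ASO, 2 mg per kg), 6 an antibody to TfR joined to it (anti-TfR:Malat1, 50 mg per kg) and 3 a TfR-binding transport vehicle joined to it (OTV:Malat1, 50 mg per kg). Treatment lasted 24 days with 4 weekly doses, and 72 hours separated the final dose from harvest. The comparisons asked where the enzymes are expressed without treatment, how that stands beside the loss of Malat1 in each cell type, and whether treatment changed the enzymes.

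The table held 284074 nuclei, with 13841 to 18365 nuclei, 55393588 to 79866411 UMIs and a median of 2894 to 4052 UMIs per nucleus in each animal. Cell types are the authors' deposited labels: 193268 nuclei were labelled neurons, 75282 oligodendrocytes, 8444 microglia, 4972 astrocytes, 1226 vascular cells, 657 perivascular macrophages and 225 glia, the last too few for a level per animal. The median was 4614 UMIs per nucleus in neurons, 1279 in oligodendrocytes and 1004 in microglia. Each of the first 6 labels held the highest summed level of its own marker list, except that vascular cells joined endothelial, mural and fibroblast-like markers. Levels are UMI counts scaled to a common total in each animal and type (CPM). The neuron list summed to 12826 CPM in neurons, 930 CPM in oligodendrocytes and 1470 CPM in vascular cells. Oligodendrocyte precursor markers summed to 1915 CPM in astrocytes, 214 CPM in neurons and 142 CPM in oligodendrocytes, and microglia markers to 2438 CPM in perivascular macrophages. The part of these markers in the levels by type was not tested. The authors' calls mark as doublets 22.4% of nuclei labelled neurons, 9.996% of astrocytes, 4.61% of oligodendrocytes and 3.38% of microglia. Without them 3 in place of 4 differences of a member between a type and neurons were called. Of 273792 barcodes, 10044 (3.668%) occurred in 2 or more libraries. A deposited batch number runs from 1 to 4 and every group but OTV:Malat1, which has no animal in batch 1, has an animal in each. The labels describe separate samples and mention no pooling.

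Rnaseh2c and Xrn2 carry the batch and cell type results below, so the 250 bases before their RefSeq start (GRCm38.p6, gene strand, 5′ to 3′) are shown, with each CpG in capitals. Xrn2 is on the plus strand, chr2:147012749-147012998, and Rnaseh2c on the plus strand, chr19:5601623-5601872.
Xrn2: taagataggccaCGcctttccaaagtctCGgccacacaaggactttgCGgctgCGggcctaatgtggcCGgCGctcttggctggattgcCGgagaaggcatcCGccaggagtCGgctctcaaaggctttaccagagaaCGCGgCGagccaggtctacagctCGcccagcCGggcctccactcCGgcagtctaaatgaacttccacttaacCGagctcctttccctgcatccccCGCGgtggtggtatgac
Rnaseh2c: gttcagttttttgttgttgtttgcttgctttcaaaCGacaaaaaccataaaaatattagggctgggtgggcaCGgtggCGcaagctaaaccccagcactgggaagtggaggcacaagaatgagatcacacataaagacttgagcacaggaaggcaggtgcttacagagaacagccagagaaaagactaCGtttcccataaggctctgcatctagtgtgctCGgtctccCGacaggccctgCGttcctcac
The Xrn2 stretch held 18 CpGs and 60.8% G or C, and 78.3% of 32851 promoter stretches of that length in the same table held fewer CpGs. The Rnaseh2c stretch held 7 CpGs and 49.2% G or C, with 53.7% holding fewer, and the median over the table was 6. Of the 7 genes, 5 had an entry in that table.

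In the GENCODE M21 annotation (GRCm38) Rnaseh1 lies on chromosome 12 (28649602 to 28659589, plus strand) and Xrn2 on chromosome 2 (147012996 to 147078000, plus strand), and neither overlaps another gene. Rnaseh2c lies on chromosome 19 (5601873 to 5607019, plus strand), and 4006 of its 5147 bases are shared with Kat5 on the opposite strand. Malat1 is on the same chromosome (5795690 to 5802672, minus strand), 188670 bases away. Dis3 on chromosome 14 (99075206 to 99099770, minus strand) shares 347 bases with Pibf1 on the other strand. Rnaseh2b on chromosome 14 (62292589 to 62372992, plus strand) shares 459 bases with Dleu7, and Exosc10 on chromosome 4 (148558429 to 148582401, plus strand) shares 821 bases with the pseudogene Gm13204. Rnaseh2a on chromosome 8 (84956610 to 84969767, minus strand) shares 181 bases with Prdx2 on the other strand and 1756 bases with Gm49661 on its own strand. The sources used here do not say whether counting used strand, and reads of such pairs, Rnaseh2c and Kat5 above all, may not be told apart.

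All 7 genes were detected in every animal when all nuclei were summed. In saline animals Rnaseh1 stood at 11.7, 11.9, 12.9 and 9.42 CPM (mean 11.5 ± 1.47, SD, n = 4). The RNase H2 subunits were at 9.34, 11.2, 10.4 and 7.38 CPM for the catalytic Rnaseh2a, at 14.4, 13.2, 13.8 and 13.2 CPM for Rnaseh2b, and at 7.56, 10.1, 9.64 and 5.27 CPM for Rnaseh2c. Saline replicate 4, of batch 4, was the lowest of the 4 for each of the genes except Dis3, although Rnaseh2b varied little (13.6 ± 0.60). Xrn2 stood at 112, 100.003, 99.0 and 95.5 CPM, and the exosome nucleases at 34.0, 32.8, 31.5 and 30.4 CPM for Exosc10 and 17.01, 14.3, 13.5 and 16.5 CPM for Dis3. Xrn2 and Exosc10 spread little over animals (102 ± 7.40 and 32.2 ± 1.55), while Rnaseh2c (8.15 ± 2.23) spread most relative to its mean. CPM is not corrected for gene length, so levels are compared between samples and types and not between genes.

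Across cell types in saline, Rnaseh1, Rnaseh2b, Rnaseh2c and Xrn2 were higher in oligodendrocytes, the myelin-forming cells of the brain, than in neurons, by a mean of 1.33 to 1.49 times in CPM. An edgeR fit of these 2 types, chosen after seeing the data, called these 4 of 7 members beside 80.3% of all genes, and the planned fit over all types called 2 of 4. For Rnaseh2a, Exosc10 and Dis3 no difference from neurons passed in the fit of 2 types. Rnaseh2b in oligodendrocytes was 20.9, 18.3, 19.8 and 18.4 CPM, against 13.6, 12.4, 13.3 and 12.7 CPM in the neurons of the same animals. Xrn2 in oligodendrocytes was 143, 124, 135 and 145 CPM, against 105, 95.6, 95.5 and 89.5 CPM in neurons. For both genes every oligodendrocyte value lay above every neuron value, and the share of all genes that do so was not computed. Rnaseh1 was 16.3, 19.2, 15.7 and 11.8 CPM in oligodendrocytes and 10.9, 10.8, 12.7 and 9.08 CPM in neurons, so that replicate 4's oligodendrocytes fell within the neuron range although above that animal's own neurons. Rnaseh2c overlapped more, at 10.3, 11.4, 13.8 and 6.02 CPM against 6.99, 9.76, 9.14 and 5.17 CPM. These oligodendrocyte levels rest on 460 UMIs of Rnaseh1, 550 of Rnaseh2b, 297 of Rnaseh2c and 3847 of Xrn2.

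**Figure D1:**
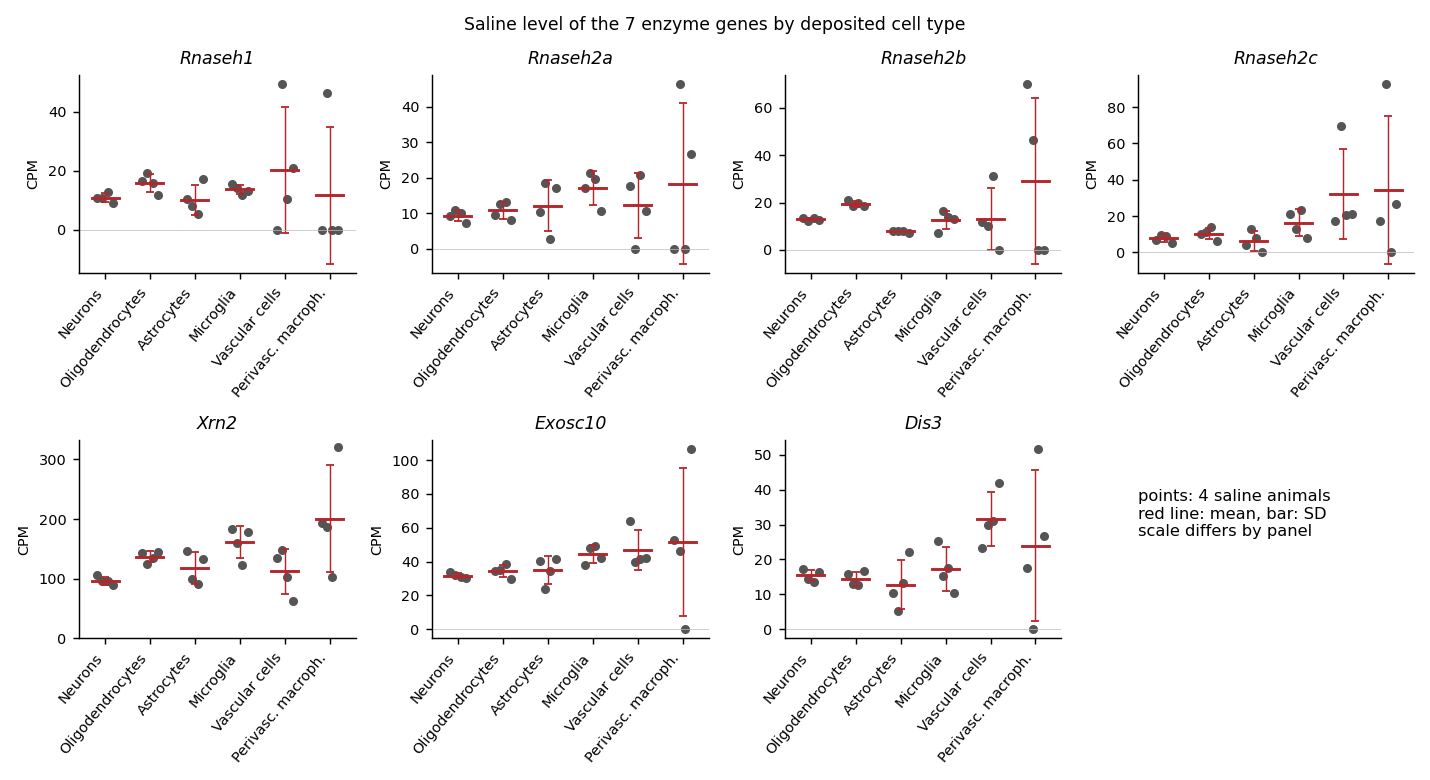
Level (CPM, vertical axis, scale differing by panel) of each of the 7 genes in the 4 saline animals (points) by deposited cell type, with the mean (red line) and SD (bar). Oligodendrocytes stand above neurons without overlap for Rnaseh2b and Xrn2, and perivascular macrophages and vascular cells scatter most.

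The edgeR fit over all types, with the animal as a block and Benjamini-Hochberg adjustment over 10659 genes, tested only Rnaseh2c, Xrn2, Exosc10 and Dis3, since the other members fell under its filter on low counts. Rnaseh2c and Dis3 passed that filter only through sums of types other than neurons and oligodendrocytes, where their CPM was high. A higher level called in such a type is thus not separate from the filter. Against neurons, oligodendrocytes were higher in Xrn2 by 0.38 on the log2 scale (SE 0.08, edgeR adjusted p = 1.6e-05) and in Rnaseh2c by 0.29 (SE 0.14, edgeR adjusted p = 0.0487), which is 2 of 4 members. In that comparison 80.7% of all genes were called, 39.3% higher and 41.4% lower, so a call says little about these genes in particular. In the fit of oligodendrocytes and neurons alone, which tested all 7 members among 18467 genes, Rnaseh1 was higher by 0.57 (SE 0.10), Rnaseh2b by 0.59 (SE 0.08), Rnaseh2c by 0.43 (SE 0.11) and Xrn2 by 0.51 (SE 0.06). The values for Rnaseh2a (0.21), Exosc10 (0.13) and Dis3 (-0.09) were not called. Xrn2 was called in oligodendrocytes in 15 of 15 settings, at 0.28 to 0.50, and Rnaseh2c in 8 of 13, not with DESeq2 (adjusted p = 0.658). Rnaseh1 was called in 4 of the 5 settings that tested it (0.31 to 0.53) and Rnaseh2b in 5 of 6 (0.36 to 0.52). Neither held its call in every setting. Dis3 was called lower in 6 of 15, DESeq2 among them, at -0.31 to -0.10. These settings leave out the fit of 2 types.

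The same order held within animals of every group. The ratio of the oligodendrocyte to the neuron CPM was above 1 in 17 of 17 animals for Rnaseh1 (saline mean 1.45 ± 0.24, SD, n = 4), Rnaseh2b (1.49 ± 0.04), Rnaseh2c (1.33 ± 0.19) and Xrn2 (1.42 ± 0.14). Rnaseh2a and Exosc10 were each above 1 in 14 of 17 animals. Dis3 was above 1 in 8 of 17 and in 1 of the 4 saline animals, on both sides of an equal level. The 17 animals include the treated ones, in which the fall of Malat1 in oligodendrocytes raises the CPM of other genes there. How many of all genes lie above 1 in every animal was not computed. In the saline fit over all types 39.3% of all genes were called higher in oligodendrocytes, so a higher level there is not particular to these genes.

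**Figure D2:**
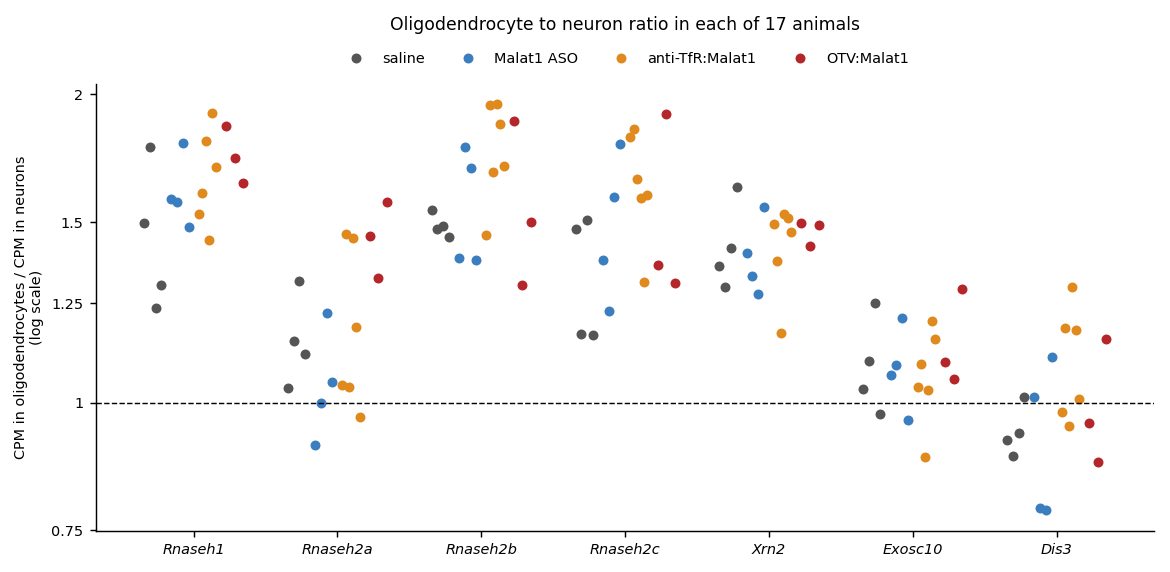
Ratio of CPM in oligodendrocytes to CPM in neurons of the same animal (vertical log axis) for each gene, with 1 point per animal coloured by group. Rnaseh1, Rnaseh2b, Rnaseh2c and Xrn2 lie above 1 in all 17 animals, while Dis3 lies on both sides.

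Microglia, the resident immune cells, had saline Xrn2 levels of 184, 159, 124 and 179 CPM, above the neurons of every animal. Rnaseh2a in microglia stood at 16.9, 21.2, 19.6 and 10.5 CPM from 44 UMIs, against a neuron mean of 9.31 ± 1.56 CPM. Exosc10 was 38.1, 48.3, 49.1 and 42.1 CPM in microglia, each above the neuron mean of 31.7 ± 1.52. Of the 4 members tested between microglia and neurons, 0 were called by edgeR or DESeq2 and 1 had an unadjusted edgeR p under 0.05, while edgeR called 74.5% of all genes. That fit scales by TMM, which centred the median of all genes at -0.21, and by library size alone that median was 0.47. With the scaling, Xrn2 in microglia went from 0.05 (edgeR adjusted p = 0.663) to 0.74, then called, and Exosc10 from -0.20 to 0.48 (edgeR adjusted p = 0.0066) on the log2 scale. The sign of Exosc10 thus flips with the scaling, by a move as large as that of the median of all genes. Over 15 settings Xrn2 was called in 3 and Exosc10 and Dis3 in 1 each. Rnaseh2c was called in 2 of the 13 settings that tested it, and Rnaseh2b was called lower in 4 of 6. In the fit of microglia and neurons alone Rnaseh2b was lower by 0.59 on the log2 scale (a log2 change of -0.59, edgeR adjusted p = 0.0461, with 64.2% of genes called), although the 2 mean levels were close, at 12.6 ± 3.98 and 13.002 ± 0.53 CPM.

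In astrocytes Rnaseh2b, the RNase H2 subunit that binds the replication clamp PCNA, was lowest of the 6 types, at 7.947, 7.879, 8.003 and 7.354 CPM, below all 4 neuron values, on 19 UMIs. The fit of astrocytes and neurons alone put the log2 difference at -0.97 (SE 0.34, edgeR adjusted p = 0.0092) where 49.6% of genes were called. Dis3 in astrocytes was 10.3, 5.25, 13.3 and 22.1 CPM, a wide spread that overlapped the neuron range of 13.5 to 17.2 CPM. The fit over all types called it lower (log2 change -0.61, SE 0.27, edgeR adjusted p = 0.0429, 1 of 4 members, 61.6% of all genes), but only 8 of 15 settings kept that call. Vascular Rnaseh2c was called higher (log2 1.40, SE 0.50, edgeR adjusted p = 0.0181, 1 of 4 members, 47.8% of all genes), on 14 UMIs at 17.5, 69.4, 20.7 and 21.0 CPM, and was called in 11 of 13 settings (log2 1.05 to 1.97). High sums in vascular cells, microglia and perivascular macrophages brought it past the filter of the fit over all types. Its call there is therefore not independent of how it was selected. The fit of vascular cells and neurons alone, which is not among those settings, did not call it (log2 1.24, edgeR adjusted p = 0.0621) and called 0 of 7 members, with 2 at an unadjusted p under 0.05, beside 33.8% of all genes. In perivascular macrophages 0 of 4 members were called by edgeR or DESeq2 and 0 had an unadjusted p under 0.05, beside 42.4% of all genes called, and Xrn2 rested on 35 UMIs. Over the settings Exosc10 was called there in 2 of 15 (log2 -2.93 to 0.68 over all 15), Xrn2 in 1 of 15 and Rnaseh2c in 1 of 13.

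Ordered by mean level, Xrn2 ran from perivascular macrophages (200.6 ± 89.4 CPM) through microglia (161 ± 27.2), oligodendrocytes (137 ± 9.68), astrocytes (117 ± 26.6) and vascular cells (112 ± 38.0) to neurons (96.5 ± 6.61). Exosc10 was also lowest in neurons (31.7 ± 1.52) and highest in perivascular macrophages (51.5 ± 43.7). Rnaseh1 was highest in vascular cells (20.2 ± 21.4, 8 UMIs) and oligodendrocytes (15.8 ± 3.02) and lowest in astrocytes (10.2 ± 5.08). Rnaseh2a was highest in perivascular macrophages (18.3 ± 22.6, 3 UMIs) and microglia (17.1 ± 4.72) and lowest in neurons (9.31 ± 1.56). Rnaseh2c was highest in perivascular macrophages (34.3 ± 40.7) and vascular cells (32.2 ± 24.9) and lowest in astrocytes (6.28 ± 5.62). Rnaseh2b was highest in perivascular macrophages (29.2 ± 35.0, 6 UMIs) and then oligodendrocytes (19.4 ± 1.20). Dis3 was highest in vascular cells (31.5 ± 7.71), with oligodendrocytes (14.5 ± 2.04) and astrocytes (12.7 ± 7.05) lowest. For each gene, types next to each other in this order overlapped in their ranges. Outside neurons and oligodendrocytes the order rests on few UMIs: in astrocytes on 25 of Rnaseh1, 13 of Rnaseh2c and 29 of Dis3, and in microglia on 34, 41 and 44. Xrn2 had more UMIs in microglia (396) and astrocytes (311), but 54 in vascular cells and 35 in perivascular macrophages, where its mean was highest. The nuclei of these types were also shallower than those of neurons, and neither point's part in the order was tested.

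After OTV:Malat1 the change of the targeted RNA was largest in oligodendrocytes. There Malat1 made up 11.96%, 10.21%, 10.9% and 7.83% of the UMIs of the saline animals, 7.04% to 11.6% after Malat1 ASO, 5.91% to 8.75% (median 6.64%) after anti-TfR:Malat1, and 1.895%, 1.613% and 1.497% after OTV:Malat1. All 3 OTV:Malat1 animals and 5 of the 6 anti-TfR:Malat1 animals lay below every saline animal. By the edgeR fold change, which is scaled by TMM and not in CPM, Malat1 after OTV:Malat1 was at 14.4% of saline in oligodendrocytes (log2 change -2.79, edgeR adjusted p = 8.8e-08), 31.9% in astrocytes (-1.65), 56.1% in perivascular macrophages (-0.83), 61.0% in microglia (-0.71), 64.0% in neurons (-0.64) and 74.6% in vascular cells (-0.42). Of these, the changes in oligodendrocytes, astrocytes (edgeR adjusted p = 5.7e-07) and microglia (0.047) passed the test. After anti-TfR:Malat1 the log2 changes ran from -0.67 in astrocytes and -0.61 in oligodendrocytes to -0.10 in neurons, and after Malat1 ASO from -0.23 in vascular cells to 0.04 in perivascular macrophages, none of them past the test over all genes. Within each of the 4 batches oligodendrocyte Malat1 was nonetheless lower after anti-TfR:Malat1 than in saline (log2 ratio -0.91 to -0.38). In sums over all nuclei, a change in the share of a cell type and a change per nucleus cannot be told apart.

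Set beside that loss, the saline levels of the 7 genes gave no common order across the 6 types. Spearman's rho between the mean level and the OTV:Malat1 change of Malat1 (negative where a higher level goes with a larger loss) was -0.486 for Xrn2 and -0.086 for Rnaseh2b. It was 0.086 for Rnaseh2a, 0.200 for Exosc10, 0.257 for Rnaseh1, 0.314 for Rnaseh2c and 0.714 for Dis3. Taken from each saline animal in turn, the coefficient had an SD over animals of 0.247 for Xrn2, 0.359 for Rnaseh1 and 0.261 for Dis3, and the types share animals, libraries and depth. Of the types with the largest Malat1 changes after OTV:Malat1, Rnaseh2b was 19.4 ± 1.20 CPM in oligodendrocytes and 7.80 ± 0.30 CPM in astrocytes (19 UMIs), without overlap. The other 6 genes overlapped between these types, as with Exosc10 at 34.4 ± 3.71 and 35.1 ± 8.25 CPM. No test between these types was run, and the share of all genes without overlap between them was not computed.

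Deposited clusters gave a finer view. Their Malat1 changes are differences of mean log2(CPM + 1) and not edgeR values. On that scale the oligodendrocyte type changed by -2.60 after OTV:Malat1. Across the 18 clusters with 200 or more saline nuclei rho was 0.063 for Rnaseh1, -0.342 for Rnaseh2a, -0.092 for Rnaseh2b, -0.001 for Rnaseh2c, -0.222 for Xrn2, -0.082 for Exosc10 and 0.319 for Dis3. The 3 oligodendrocyte clusters had Malat1 log2 changes of -2.89, -2.92 and -2.66, with Xrn2 at 132, 140.5 and 138 CPM and Rnaseh2b at 19.9, 19.4 and 17.5 CPM. Rnaseh2c spread more over them, at 10.4, 14.8 and 8.40 CPM, as did Rnaseh2a at 10.5, 13.4 and 9.41 CPM. Within the 13 clusters labelled mostly neurons, Rnaseh1 ran from 9.62 to 12.8 CPM and was higher where less Malat1 was lost (rho 0.846), on 32 to 357 UMIs per cluster. Rnaseh2c gave 0.555, Xrn2 0.368, Exosc10 0.225, Dis3 0.181, Rnaseh2b 0.082 and Rnaseh2a -0.390 there. Over the 10 of these clusters that were over 90% neurons, without cluster 13, rho was 0.855 for Rnaseh1, 0.479 for Xrn2, 0.430 for Exosc10, 0.321 for Rnaseh2c, 0.139 for Dis3, 0.115 for Rnaseh2a and -0.297 for Rnaseh2b, so the sign of the last 2 turned. In the 13 clusters UMIs per nucleus also went with the loss (rho -0.577), and its part in the Rnaseh1 relation was not tested.

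Cluster 13 stood apart in Rnaseh2b, which reached 28.0 CPM there on 112 UMIs, the highest of the 18 clusters, while Malat1 changed by -0.22. Of its nuclei 94.3% were labelled neurons, but its summed neuron markers were 1346 CPM, against 12901 CPM in other nuclei with that label. The 4 markers of oligodendrocyte precursors summed to 4986 CPM in it, against 130.4 CPM, so its marker levels go against the label. Rnaseh1 there was 12.8 CPM, the highest of the 13 clusters. The microglia cluster was highest in Rnaseh2a (18.3 CPM), Rnaseh2c (20.2 CPM) and Xrn2 (170.1 CPM), on 48 UMIs of Rnaseh2a.

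**Figure D3:**
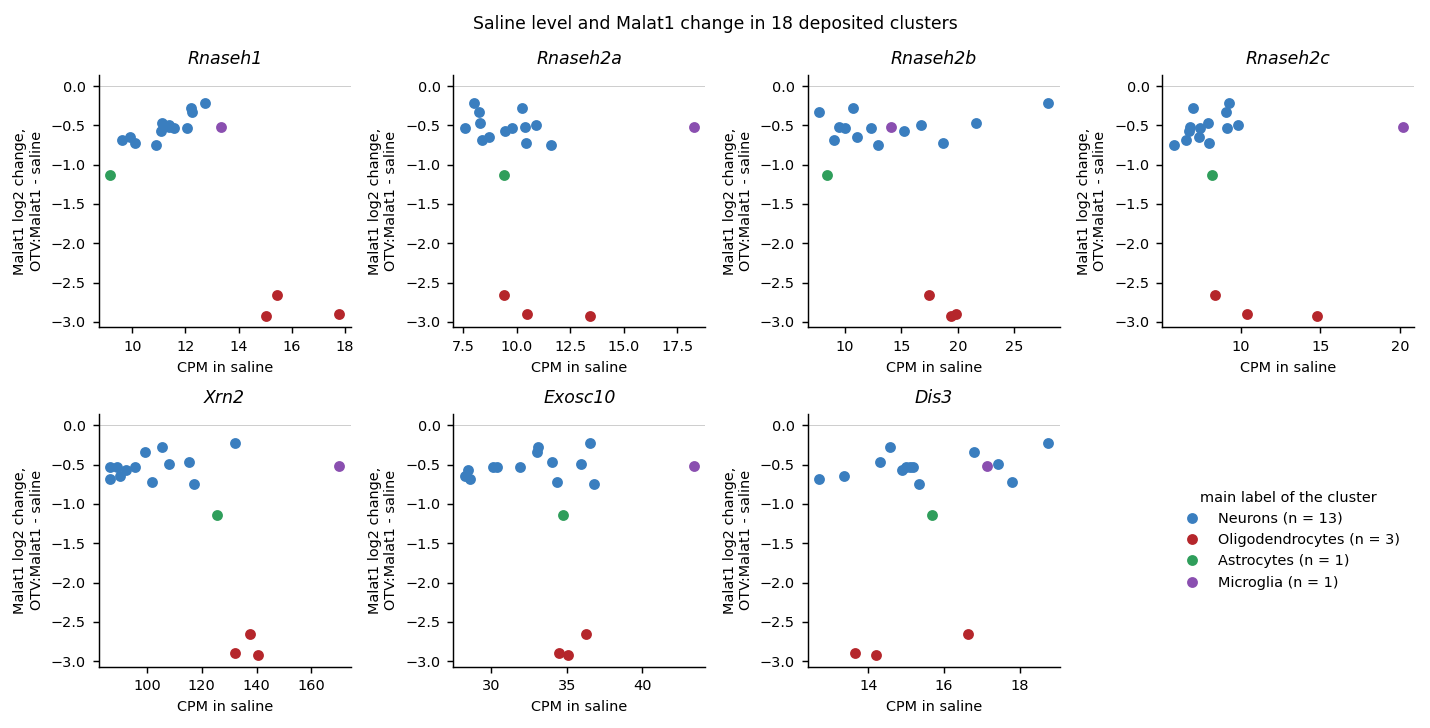
Saline level of each gene (CPM, horizontal) against the log2 change of Malat1 after OTV:Malat1 (vertical) in 18 deposited clusters, coloured by the main label. The 3 oligodendrocyte clusters sit lowest near -2.9 to -2.7, and no panel forms 1 line through all labels.

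No change of the 7 genes after treatment passed the test. In all nuclei edgeR called 0 of 7 members in each of the 4 comparisons, with 0 members at an unadjusted p under 0.05, and DESeq2 called 0 of 7. The background was the same: 0% of 21375 genes were called after OTV:Malat1, anti-TfR:Malat1 or Malat1 ASO against saline, or between OTV:Malat1 and anti-TfR:Malat1. The targeted Malat1, at 68506 ± 15610 CPM in saline and 40023 ± 5719 CPM after OTV:Malat1 (SD), was itself among the genes not called. An absent call in all nuclei thus does not show an absent change. After OTV:Malat1 Rnaseh1 stood at 11.7, 14.8 and 10.3 CPM, Rnaseh2a at 10.8, 11.7 and 7.58 CPM and Xrn2 at 103, 109 and 112 CPM, all overlapping saline. The log2 changes were 0.02 for Rnaseh1 (SE 0.12), 0.00 for Rnaseh2a (SE 0.14), 0.04 for Rnaseh2b (SE 0.10), 0.08 for Rnaseh2c (SE 0.24), 0.02 for Xrn2 (SE 0.08), 0.02 for Exosc10 (SE 0.08) and -0.10 for Dis3 (SE 0.11). The 95% intervals ran from -0.15 to 0.18 for Xrn2 and from -0.43 to 0.60 for Rnaseh2c. These fits hold no batch term, so the spread between batches is part of the width of the intervals. The intervals are not adjusted for the number of genes tested, whereas a call is. Changes outside an interval could therefore also go uncalled, and the intervals are not a limit of detection. All 3 contrasts with saline use the same 4 saline animals.

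**Figure D4:**
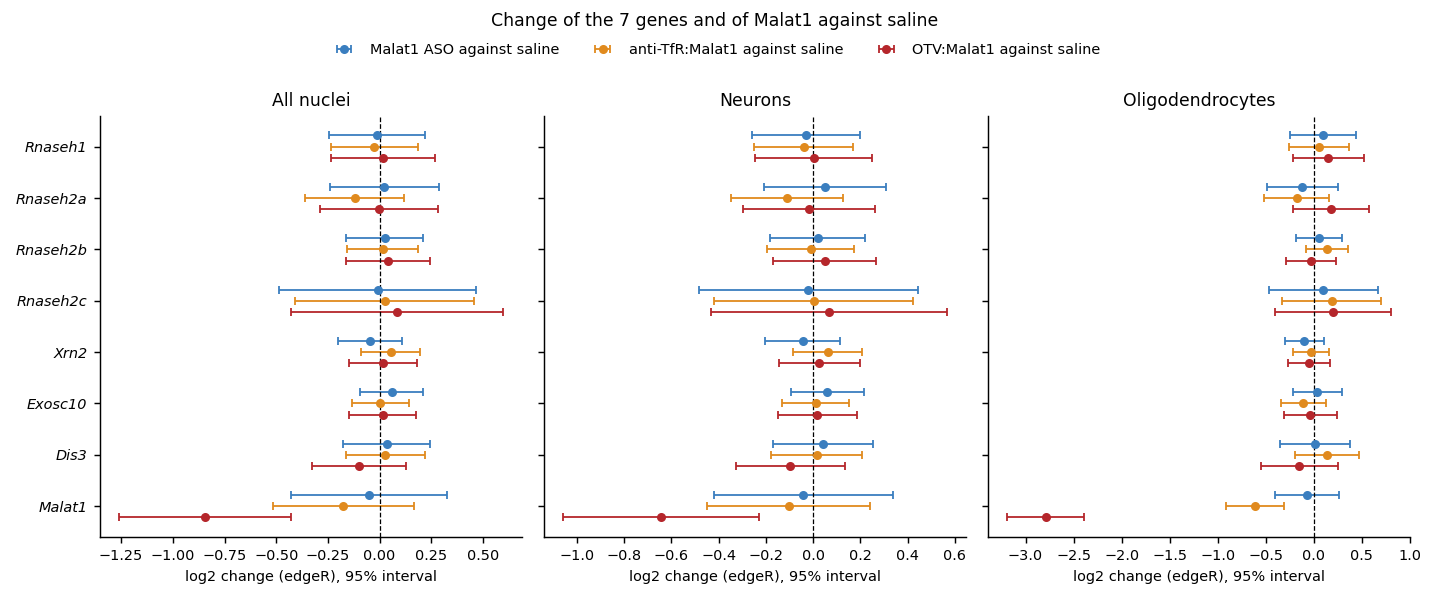
Log2 change against saline (horizontal, edgeR, with its 95% interval) of the 7 genes and Malat1 for the 3 treatments in all nuclei, neurons and oligodendrocytes. Every interval of the 7 genes crosses 0, while Malat1 after OTV:Malat1 lies at -0.84, -0.64 and -2.79.

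In oligodendrocytes, where Malat1 changed most after OTV:Malat1, no change of the 7 genes passed either. After OTV:Malat1 Rnaseh1, whose enzyme acts on ASO hybrids, stood at 20.2, 23.5 and 16.02 CPM, against 11.8 to 19.2 CPM in saline, 14.0 to 19.7 CPM after Malat1 ASO and 14.3 to 21.98 CPM (median 16.5) after anti-TfR:Malat1. Replicates 1 and 2 were above every saline animal in CPM, but with Malat1 left out of the UMI total the groups ran from 16.3 to 23.9 CPM and from 12.8 to 21.3 CPM in saline. The log2 change was 0.15 (95% interval -0.22 to 0.52). Rnaseh2b after anti-TfR:Malat1 was 19.9 to 24.8 CPM (median 21.9), above every saline animal in 5 of 6 animals. With Malat1 left out of the total it was 23.8 ± 1.70 CPM (SD, n = 6) against 21.6 ± 1.71 CPM (SD, n = 4) in saline, with overlap, and its log2 change was 0.14 (95% interval -0.08 to 0.35). Rnaseh2a after OTV:Malat1 was 15.2, 14.8 and 11.4 CPM, against 9.49, 12.4, 13.2 and 8.02 CPM in saline and 8.13 to 13.6 CPM (median 9.22) after anti-TfR:Malat1. Its log2 change was 0.18 against saline (-0.21 to 0.57) and 0.36 against anti-TfR:Malat1 (SE 0.18, edgeR adjusted p = 0.991). Within each of the 3 batches that hold both groups, with Malat1 left out of the UMI total, the log2 ratio of Rnaseh2a was 0.02 to 0.37 against saline and 0.26 to 0.32 against anti-TfR:Malat1, while Rnaseh1 against saline was -0.05 to 0.42. On that scale Exosc10 was 0.17 to 0.18 and Dis3 was lower in 3 of 3 batches (-0.36 to -0.00) against anti-TfR:Malat1, and Dis3 after anti-TfR:Malat1 was 0.03 to 0.25 against saline in the 4 batches. The other values of the members in these comparisons were of mixed sign over the batches, and how many of all genes keep 1 sign was not computed. With batch as a block 0 members were called in oligodendrocytes by edgeR, and Rnaseh2a against anti-TfR:Malat1 (log2 change 0.29, unadjusted p = 0.049) was the 1 value of 28 with an unadjusted p under 0.05. The share of all genes called with that block is not given here. The other intervals against saline were -0.28 to 0.24 for Rnaseh2b, -0.41 to 0.80 for Rnaseh2c, -0.26 to 0.17 for Xrn2, -0.31 to 0.25 for Exosc10 and -0.55 to 0.25 for Dis3. Without that block no member was called in any comparison by edgeR or DESeq2, none had an unadjusted p under 0.05, and 0.0208% of genes were called for OTV:Malat1 against saline, 0.00694% against anti-TfR:Malat1 and 0% in the other comparisons.

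The loss of Malat1 also entered the CPM of Xrn2. In oligodendrocytes Xrn2 was 146, 146 and 159.7 CPM after OTV:Malat1, above all 4 saline values (124 to 145 CPM). Malat1 made up 10.2% of oligodendrocyte UMIs in saline and 1.67% after OTV:Malat1, which raises the CPM of all other genes 1.095-fold. With Malat1 left out of the UMI total, Xrn2 was 153 ± 10.6 CPM (SD, n = 4) in saline and 153 ± 7.77 CPM (SD, n = 3) after OTV:Malat1.

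In neurons 0 of 7 members were called in any comparison by edgeR, 0 had an unadjusted p under 0.05, and 0% of 20906 genes were called, with DESeq2 calling 0 members as well. Malat1 after OTV:Malat1 (log2 change -0.64) was among the neuron genes that edgeR did not call. Within each of the 3 batches, with Malat1 left out of the UMI total, neuron Exosc10 after OTV:Malat1 was higher than in saline (log2 ratio 0.06 to 0.10) and than after anti-TfR:Malat1 (0.08 to 0.23). Neuron Xrn2 was 0.00 to 0.25 against saline, and against anti-TfR:Malat1 Rnaseh2b was 0.09 to 0.32 and Rnaseh2c 0.01 to 0.13. In all nuclei Exosc10 was higher in 3 of 3 batches against both groups (0.05 to 0.12 and 0.07 to 0.23), as were Xrn2 against saline (0.00 to 0.21) and Rnaseh2b against anti-TfR:Malat1 (0.01 to 0.28). These sums are mostly the same neuron counts (in saline 7166 of 8381 Exosc10 UMIs), so they are not a separate result. With batch as a block edgeR called none of these, with 0 members at an unadjusted p under 0.05, and the share of all genes called in that fit is not given here. The other values of the members in these comparisons were of mixed sign over the batches. The same 3 OTV:Malat1 animals enter both comparisons. How many of all genes keep 1 sign over the batches was not computed. The neuron log2 changes after OTV:Malat1 ran from -0.10 for Dis3 to 0.07 for Rnaseh2c. The difference in response between oligodendrocytes and neurons was tested as an interaction: 0 of 7 members were called against 0.00495% of 20187 genes for OTV:Malat1 against saline, where Malat1 itself differed by -2.16 (SE 0.12). For Rnaseh1 that difference was 0.13 (95% interval -0.16 to 0.42) and for Rnaseh2a 0.20 (-0.10 to 0.50).

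In microglia Rnaseh2a was 6.92, 11.2 and 6.10 CPM after OTV:Malat1, so that replicates 1 and 3 lay below every saline animal. The log2 change was -1.101 (SE 0.52, unadjusted p = 0.039), which edgeR did not call over all genes, where 0.011% were called. With batch as a block Rnaseh2a was not called by edgeR either (log2 change -1.29, unadjusted p = 0.013). In that fit 2 of 28 microglia values of the members had an unadjusted p under 0.05 and 0 were called, and the share over all genes is not given here. Dis3 in microglia was 25.4, 15.3, 17.7 and 10.5 CPM in saline, 8.69, 11.97, 6.72 and 16.7 CPM after Malat1 ASO and 11.5, 11.2 and 9.16 CPM after OTV:Malat1, against 14.3 to 25.9 CPM (median 17.9) after anti-TfR:Malat1. Its log2 change was -0.74 for Malat1 ASO against saline (SE 0.36, unadjusted p = 0.046) and -0.87 for OTV:Malat1 against anti-TfR:Malat1 (SE 0.40, unadjusted p = 0.036), and in both comparisons 0% of genes were called. Over the types tested in the edgeR fits with a filter on low counts and without batch, the 7 genes gave 100 values. The 3 above were the only ones with an unadjusted p under 0.05, and they rest on 11 to 59 UMIs per group. Of 9104 microglia genes, 367 had an unadjusted edgeR p under 0.05 for OTV:Malat1 against saline. The count was 204 for Malat1 ASO against saline and 328 for OTV:Malat1 against anti-TfR:Malat1. In astrocytes Xrn2 and Exosc10 passed that filter and in vascular cells and perivascular macrophages only Xrn2, with 0 called by edgeR and 0 at an unadjusted p under 0.05, beside 0.0117% of astrocyte genes for OTV:Malat1 against saline or anti-TfR:Malat1 and 0% of vascular and perivascular macrophage genes. DESeq2 and edgeR without the filter tested all 7 genes in every type and called 0. At an unadjusted p under 0.05 DESeq2 had 0 of 28 values in each of these 3 types and edgeR without the filter 0 in astrocytes, 1 in vascular cells (Dis3) and 1 in perivascular macrophages (Rnaseh2c). Astrocyte Rnaseh2b, under the filter, was 15.8, 14.8 and 9.06 CPM after OTV:Malat1, all above the saline values, on 9, 9 and 4 UMIs. The saline values rest on 19 UMIs over 4 animals, so both sides are near the limit of counting. The share of astrocyte genes without overlap was not computed. Rnaseh2b is thus not set apart by this. Its log2 change was 0.63 by edgeR without the filter (adjusted p = 0.899) and 0.66 by DESeq2 (unadjusted p = 0.256), not called by either.

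Rnaseh2c and Dis3 differed between the deposited batches. With treatment in the model, the deposited batch number was tested as a term over all genes, which was decided once the data had been seen. In all nuclei it called 3 of 7 members, Rnaseh2c (edgeR adjusted p = 0.0011), Dis3 (0.0069) and Rnaseh2a (0.027), beside 21.7% of all genes. Rnaseh2c was 5.25 to 7.003 CPM in the 5 animals of batch 4 and 8.22 to 11.3 CPM in the 9 animals of batches 2 and 3, without overlap, with batch 1 between them at a mean of 7.52. Dis3 had another order: it was 17.01 to 17.9 CPM in batch 1 and 15.7 to 16.5 CPM in batch 4, above 13.8 to 15.0 CPM in batch 2 and 13.5 to 14.4 CPM in batch 3. The share of all genes whose batches separate without overlap was not computed. In oligodendrocytes 2 of 7 members were called, Rnaseh2c (0.013) and Dis3 (0.039), beside 13.1% of genes, and in neurons 3 of 7, Rnaseh2c (0.00099), Dis3 (0.0063) and Rnaseh1 (0.030), beside 20% of genes. Kat5, which overlaps Rnaseh2c, was not called for batch (adjusted p = 0.746), whereas Pibf1 beside Dis3 was (0.047), as was Prdx2 beside Rnaseh2a (0.0028). The meaning of the batch number is not given in the sources used here.

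**Figure D5:**
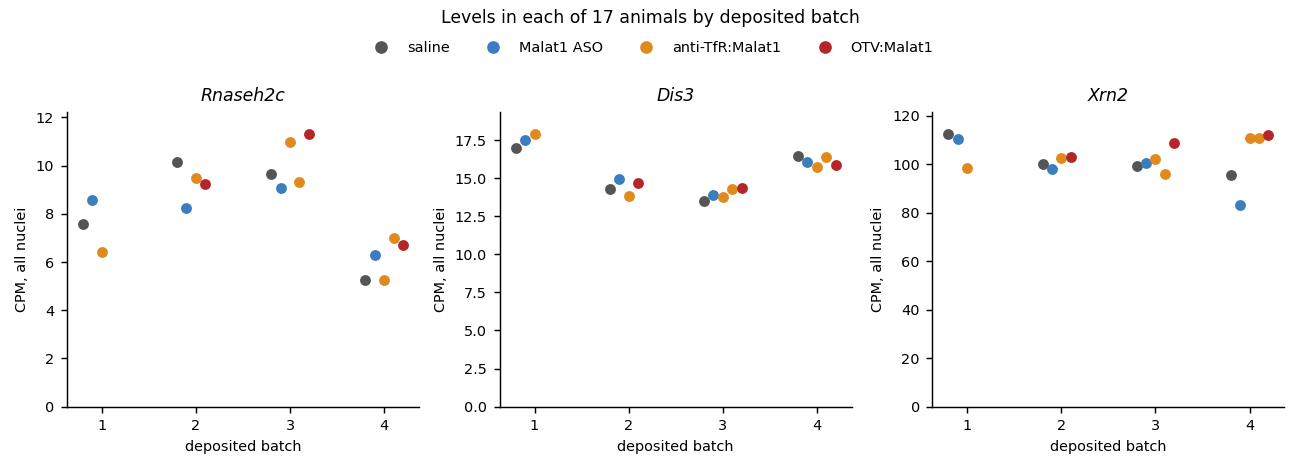
Level in all nuclei (CPM) of Rnaseh2c, Dis3 and Xrn2 in each of 17 animals by deposited batch (1 to 4), coloured by group. All 5 animals of batch 4 lie below all 9 of batches 2 and 3 for Rnaseh2c, and each batch mixes the groups. How many of all genes separate in this way was not computed.

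Other genes of these pathways were taken from lists of R-loop helicases (with Top1 and Senp3), partners of the 5′ exonuclease and exosome subunits (with Dis3l and Dis3l2). Further lists held exosome adaptors, and nucleic acid sensing genes together with genes of Aicardi-Goutières syndrome such as Adar. In every treatment comparison and in the interaction, edgeR called 0 genes of any list, with at most 2 of a list at an unadjusted p under 0.05. Between oligodendrocytes and neurons in saline, 1 of 6 genes of the R-loop list was higher and 3 were lower (median log2 difference -0.17). Of 6 tested genes of the exosome list 3 were higher with none lower (median 0.43). Dis3l and Dis3l2 are among these 3, so the count does not describe the nuclear exosome alone. Over all genes 39.3% were called higher and 41.4% lower, with a median of -0.02. Of 14 exosome adaptors 4 were higher and 4 lower (median 0.12), of 5 partners of the 5′ exonuclease 1 and 1, and of 5 genes of the sensing and Aicardi-Goutières list 1 and 1 (median -0.26). The genes with the lowest adjusted p were, upward, Ddx5, a helicase that unwinds R-loops, at 0.78 (SE 0.07), Dis3l at 0.73 and Dis3l2 at 0.69, both relatives of Dis3 that act mainly in the cytoplasm. Downward they were Adar, which edits adenosine in double-stranded RNA, at -2.12 (SE 0.09), the poly(A) polymerase Tent4a at -1.42 and the poly(A)-binding Zc3h14 at -0.82.

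By Pearson's r of log2(CPM + 1) over the 18 clusters, given as a description since clusters share animals and depth, the genes of 10 CPM or more that were most like Xrn2 were Wac (0.982) and Rab5b (0.979). Exosc10 was most like Cbx1 (0.948) and Senp6 (0.947), and Dis3 like Cyb5r4 (0.831) and Agbl5 (0.825). For Rnaseh1 they were Abcg1 (0.888) and Pik3c3 (0.846), for Rnaseh2a Mrps36 (0.928) and Zbtb7a (0.923), for Rnaseh2b Polh (0.876) and Mthfd1l (0.862), and for Rnaseh2c Ssr4 (0.920) and Srp9 (0.904).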

How the data were processed

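The authors deposited raw UMI counts per gene and nucleus as whole numbers, with cell type labels, cluster numbers, doublet calls and a batch number. Cell Ranger 6.0.1, Seurat 4 and the mm10 build are named in the submitters' processing notes. All deposited nuclei were kept, including the 47758 (16.8%) that the authors' calls mark as doublets, 22.4% of neurons and 4.61% of oligodendrocytes. Of the metadata columns 10 were not used.

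For each animal, counts were added up over all nuclei and over each deposited label with at least 20 nuclei. Fits used all genes: filterByExpr, TMM, and quasi-likelihood tests in edgeR 4.0.16 (R 4.3.3), two-sided, adjusted by Benjamini-Hochberg, threshold 0.05. Treatment fits held all 17 animals. Type fits held the 4 saline animals with the animal as a block. SEs were derived from each coefficient and its F. CPM is relative to the UMIs of the animal and type. P-values measure the spread between these samples. The code was tested on simulated data.

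The 7 genes, the pathway lists and the tests were chosen with earlier results of these data known. The text names all 7 genes, Malat1, up to 3 list genes each way by adjusted p, and the 2 most like genes per member. Replicate numbers of the titles did not pair the animals: over 21 same-numbered pairs the deviations correlated at a median of 0.05. Over 27 pairs of the same deposited batch the median was 0.22, with 19 over 0.1. The treatment fits held no batch term, and with batch as a block 0 changes of the 7 genes were called in all nuclei, neurons or oligodendrocytes. Alternatives included DESeq2 1.42.0, other scalings and filters, blocks, and leaving out each animal, nuclei under 1000 UMIs, deposited doublets or cluster 13. Fits of 2 types alone, the batch term and within-batch ratios were added after seeing the data. The log2 ratios within batches are differences of mean log2(CPM + 1). Groups, types or batches without overlap, and signs shared by animals or batches, were counted for the 7 genes and Malat1 only. The share of all genes that do the same was not computed.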

Additional observations from a re-analysis of the deposited data

Results flagged for a closer look

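Of 63 sets of animals examined, 5 held an animal far from the others of its group, and chance flags about 1 group in 20. Exosc10 in anti-TfR:Malat1 replicate 1 was the highest of its 6 animals both over all nuclei (37.3 CPM, with 0.722 of the group's range lying between it and the next) and in neurons (37.0 CPM, 0.709 of the range). This animal belongs to batch 1, whose other 2 animals had Exosc10 at 34.0 and 37.3 CPM over all nuclei. Rnaseh1 in neurons was lowest in Malat1 ASO replicate 4, at 9.44 CPM (0.842 of the range). In oligodendrocytes Rnaseh2a was highest in Malat1 ASO replicate 3, at 11.5 CPM (0.831 of the range), and Xrn2 in Malat1 ASO replicate 1, at 145 CPM (0.839 of the range).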

How the results depend on the processing

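Under every setting run, 0 changes of the 7 genes by treatment passed the threshold (3033 values, lowest adjusted p 0.702), nor did any difference in response between oligodendrocytes and neurons (616 values, lowest 0.544). In all nuclei, neurons and oligodendrocytes the sign changed in 164 of 2240 alternative treatment values, and it changed in 28 of 588 differences. It was kept in the others of these, and signs of treatment values in the other cell types were not counted. Calls between cell types were less stable. The 4 calls of a member in a type became 9 with library sizes only, 7 with Malat1 left out, 9 with no filter and 15 with all 17 animals, and 1 to 8 with 1 saline animal left out (2, 1, 8 and 7 without replicates 1, 2, 3 and 4). More members passed the filter in some of these fits. Exosc10 in microglia turned from -0.20 to 0.48 with library sizes only, where the median of all genes moved from -0.21 to 0.47. Of the 7 genes, 2 had a negative rho with the Malat1 change over types and 5 over clusters. The cause of the other changes was not tested.

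With the replicate block of title numbers 0 treatment changes were called, as without it, and same-numbered animals correlated at -0.34 to 0.44. Between types, dropping the animal as a block (no replicate block) left 1 call.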
